A study of Mus musculus with 91 samples.

Results

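Fluorescent cells sorted from XY mouse gonads at E11.5 with the *αSma-EYFP* reporter were compared with cells sorted from XY gonads of the same stage with the *Sry-EGFP* reporter. Each group has 3 arrays, so the comparison rests on 6 of the 91 arrays of the series. A transcript cluster, the set of probes that the array reads as a single transcript, entered the comparison if it named 1 gene and stood at 6 or more on the log2 scale in 2 or all 3 of one group's arrays. This kept 15399 of 35557 clusters, for 14028 genes. Values are log2 intensities after RMA, so a difference of 1 is a 2-fold difference, and a group at or below 6 lies under the level required for testing.

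The *αSma-EYFP* cells carry the transgene Tg(Acta2-EYFP)Jll, in which regulatory sequence of *Acta2*, the gene for smooth muscle α-actin, drives EYFP. They are labelled as male mesenchymal cells of the FVB strain, and the methods describe a mixed FVB and CD-1 line bred from homozygous parents. The *Sry-EGFP* cells carry Tg(Sry-EGFP)92Ei, in which the *Sry* promoter drives EGFP without the *Sry* reading frame, and are progeny of a cross between CD-1 and C57BL/6J mice. At this stage they stand for the precursors of supporting cells. XX cells of the *αSma-EYFP* and *Sry-EGFP* lines at E11.5 serve as a reference. The labels give no treatment for any group. Gonads were taken at 11.5 dpc (Theiler stage 19), embryos were sexed by genotyping, and cells of a litter or of several litters were pooled, trypsinised and sorted for each array. Reporter line, strain background and cell type change together between the groups and cannot be told apart. A lower value in a sorted population can stand for fewer cells of a type or for less RNA per cell, which also cannot be told apart.

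The gonad at this stage is a bipotential ridge of coelomic epithelium and underlying mesenchyme. In XY embryos *Sry* is switched on in supporting cell precursors, where its protein acts on *Sox9* and starts the Sertoli program, with *Fgf9* among the early signals. The remaining somatic cells give rise to steroid-producing, stromal and perivascular cells of the interstitium. *Acta2* is best known as a contractile gene of smooth muscle, and is also used as a marker of mesenchymal and perivascular cells.

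The *αSma-EYFP* arrays were close to each other, with a mean correlation to their own group between 0.9944 and 0.9948, and correlated with the *Sry-EGFP* arrays at means between 0.9667 and 0.972. The *Sry-EGFP* arrays varied more. Replicate 1 stood apart, with a mean correlation of 0.9784 to its group against 0.9855 and 0.9847 for the others, and the median SD over clusters was 0.1667 in this group against 0.104 in the *αSma-EYFP* group. Replicate 1 also had the highest value of *Pf4* in its group, a chemokine of platelets and megakaryocytes, at 8.79 against 7.10 and 7.41. The same held for *Cd68*, a lysosomal protein abundant in macrophages, at 8.51 against 6.91 and 6.72. *Cd68* read 8.16, 8.02 and 7.59 in the *αSma-EYFP* XY arrays, and the macrophage gene *Csf1r* read 5.69, 5.65 and 5.48 in the *Sry-EGFP* XY arrays. *Xist*, the RNA of the inactive X chromosome, read 6.99, 5.54 and 6.74 in the *Sry-EGFP* arrays, 5.27 to 5.43 in the *αSma-EYFP* arrays and 10.9 to 11.2 in the XX arrays of both lines. The part that these differences between arrays play in the results was not tested, and values without replicate 1 are given where a count moves by over 1.5 times.

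Both groups were rich in *Sry* transcript. *Sry*, which encodes the testis-determining transcription factor, read 11.76, 11.60 and 11.56 in the *αSma-EYFP* arrays and 11.98, 11.81 and 11.88 in the *Sry-EGFP* arrays. The *αSma-EYFP* values all lay just below the *Sry-EGFP* values, and the difference of -0.25 ± 0.19 (log2, SE, n = 3 per group) did not pass the test (adjusted p = 0.337). XX cells, which lack the gene, gave means of 7.73 (*αSma-EYFP*) and 8.19 (*Sry-EGFP*). The part of the *Sry-EGFP* transgene in the readings of that line was not tested. In *αSma-EYFP* XY cells the mean was 8.25 at E12.5 and 8.09 at E13.5.

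*Sox9*, the transcription factor that *Sry* acts on, did differ. It read 10.88, 10.24 and 10.75 in *αSma-EYFP* cells and 11.68, 11.75 and 11.79 in *Sry-EGFP* cells. The arrays did not overlap, and the level in *αSma-EYFP* cells was 2.163-fold lower (difference -1.11 ± 0.19, adjusted p = 3.94e-06). XX cells had means of 8.93 and 8.48. *Acta2*, the gene whose regulatory sequence drives the *αSma-EYFP* reporter, ran the other way, at 7.88, 8.23 and 7.49 in *αSma-EYFP* cells and 6.04, 6.02 and 5.99 in *Sry-EGFP* cells, a 3.605-fold difference (adjusted p = 9.26e-05).

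**Figure D1:**
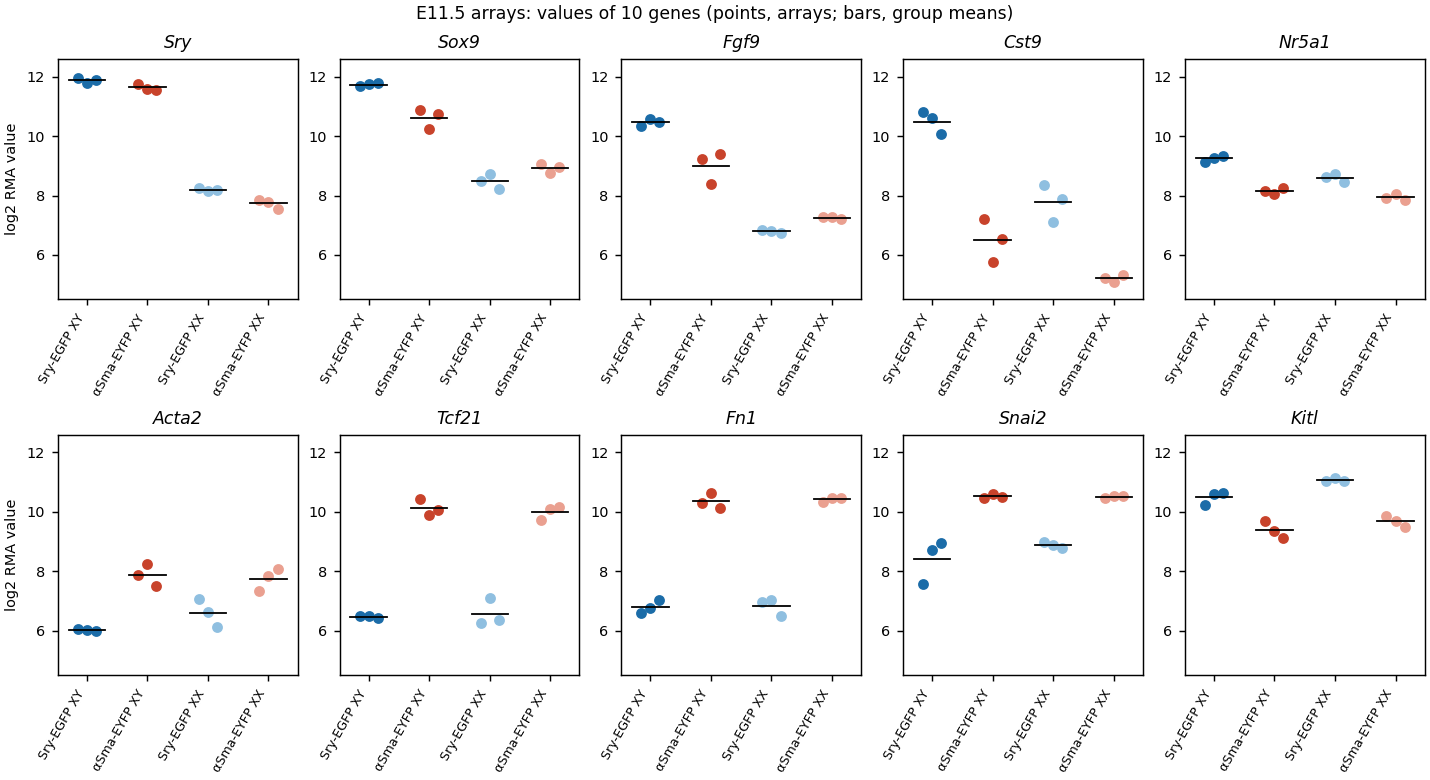
Log2 RMA values (vertical axis) of 10 genes in the 3 arrays of each of 4 groups at E11.5, with points for arrays and bars for group means. *Sry* lies between 11.56 and 11.98 in both XY reporter groups, *Sox9*, *Fgf9*, *Cst9*, *Nr5a1* and *Kitl* are lower in *αSma-EYFP* XY than in *Sry-EGFP* XY cells, and *Acta2*, *Tcf21*, *Fn1* and *Snai2* are higher.

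Over all genes the populations were far apart. Of the 15399 clusters, 2557 were higher in *αSma-EYFP* cells (16.6% of those tested) and 1994 were lower (12.9%) at an adjusted p under 0.05. They stand for 2352 and 1919 genes, of which 8 had clusters called in both directions. Differences of over 2-fold were more often higher than lower, in 541 and 153 clusters, and 7 against 2 clusters exceeded 8-fold. The 3 arrays of each group did not overlap for 3431 clusters in the higher direction (22.3%) and for 2979 in the lower (19.3%). The count of higher clusters fell to 1736, and that of lower ones to 1371, without *Sry-EGFP* XY replicate 1, which is within 1.5 times of the values with it.

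*Ptn*, which encodes the secreted growth factor pleiotrophin, differed most among the higher genes. It read 11.42, 11.92 and 11.53 in *αSma-EYFP* cells and 6.48, 7.89 and 7.98 in *Sry-EGFP* cells, an 18.05-fold difference (4.17 ± 0.43, adjusted p = 7.85e-12), and the lowest *Sry-EGFP* value was that of replicate 1. *Tcf21*, a basic helix-loop-helix factor of mesenchyme, followed at 10.43, 9.90 and 10.07 against 6.495, 6.478 and 6.426, a 12.72-fold difference (3.67 ± 0.33, adjusted p = 3.93e-14). *Fn1*, the gene for the matrix protein fibronectin, read 10.31, 10.62 and 10.11 against 6.57, 6.77 and 7.04 and was 11.74-fold higher (3.55 ± 0.19, adjusted p = 1.28e-23). In each of these genes the reporter groups were separated by a gap of more than 3 log2 units.

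Among the next genes, *Egr2*, an immediate early zinc finger factor, was 10.4-fold higher (11.67, 11.61 and 11.46 against 8.01, 8.28 and 8.32) and *Cyp1b1*, a cytochrome P450 that metabolises steroids and retinoids, 9.246-fold higher (9.42, 9.39 and 9.24 against 6.07, 5.79 and 6.56). *Nefm*, a neurofilament subunit, varied among the *αSma-EYFP* arrays, at 8.27, 10.48 and 8.22. Its mean in *Sry-EGFP* cells lay under 6, so that it was at least 7.936-fold higher with the *Sry-EGFP* group counted at 6. *Gucy1a1*, a subunit of the nitric oxide receptor, was 8.054-fold higher, *Hoxd10* 7.822-fold, *Frem1*, a matrix protein of basement membranes, 7.074-fold, *Unc5c*, a netrin receptor, 6.931-fold, *Cbln1*, a secreted synaptic organiser, 6.912-fold, and *Rnd3*, an atypical small GTPase, 6.892-fold. These genes come from different functional classes. That their arrays did not overlap between the groups follows from the rule by which the largest differences were named.

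Among the genes lower in *αSma-EYFP* cells, *AI506816*, a locus without a known function, read 5.95, 5.08 and 5.58 against 9.86, 10.11 and 9.57, at least 14.35-fold lower (adjusted p = 1.5e-19). It was low on all 18 *αSma-EYFP* arrays of the series, whatever the sex or stage, with 7.59 as the highest value and 8.73 as the lowest among the 72 other arrays. *Cst9*, which encodes a cystatin known from Sertoli cells, read 7.20, 5.75 and 6.55 against 10.81, 10.61 and 10.06 and was 15.94-fold lower (-3.99 ± 0.41, adjusted p = 5.42e-12). *Ereg*, an EGF receptor ligand, was under 6 on all *αSma-EYFP* arrays and read 6.34, 8.24 and 8.65 in *Sry-EGFP* cells, at least 3.348-fold lower. The lowest *Sry-EGFP* value of *Ereg* again belonged to replicate 1.

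*Slc7a2*, a transporter of arginine and other cationic amino acids, was even across arrays, at 6.46, 6.54 and 6.45 against 8.85, 9.03 and 8.94, and was 5.488-fold lower (adjusted p = 8.81e-20). *Pf4* was at least 3.405-fold lower. *Fgl1*, *Cntnap5a*, *Trank1* and *Kctd14* were between 4.047- and 4.28-fold lower and *Rarres1* at least 2.677-fold. Of the pair of *Homer2* clusters one was at least 3.393-fold lower (difference -2.13), and the one with the higher mean differed by -0.60 (adjusted p = 0.00197). *Kctd14* was high in both groups, at 9.76, 9.37 and 9.38 in *αSma-EYFP* cells and 11.37, 11.44 and 11.76 in *Sry-EGFP* cells. Of the 12 clusters of *Myo9a*, 4 were lower and 8 did not pass, with differences from -2.22 to 0.86, so its position among the largest differences rests on 1 cluster.

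**Figure D2:**
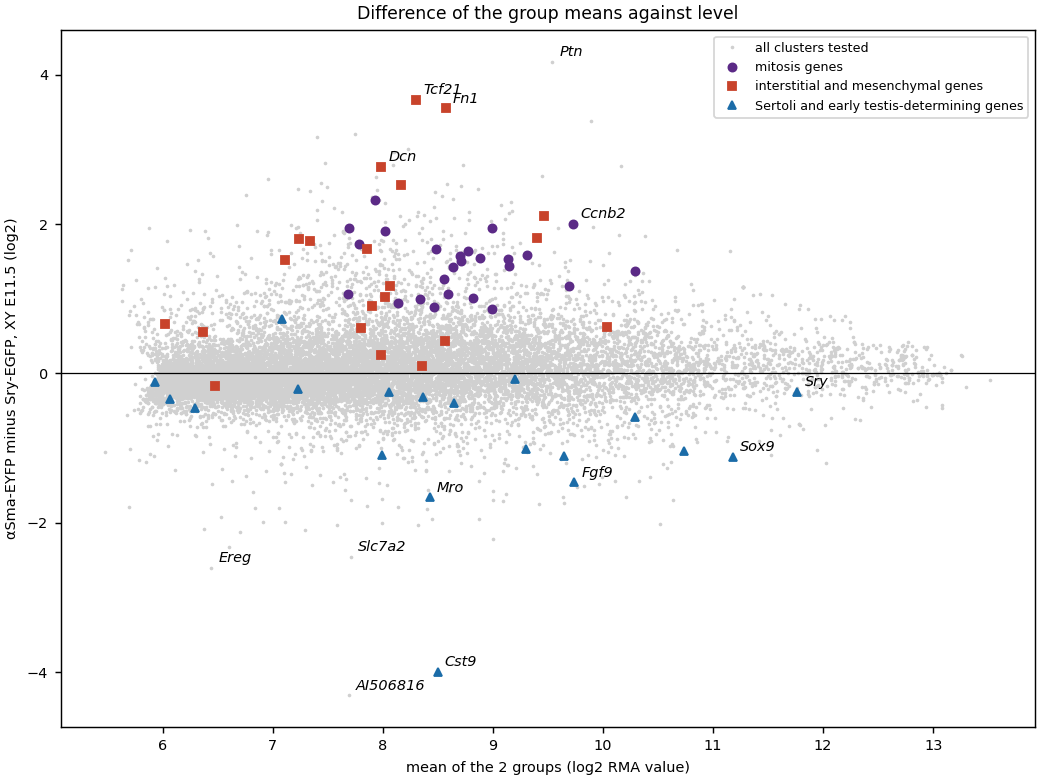
Difference between the group means (vertical axis, *αSma-EYFP* minus *Sry-EGFP*, XY E11.5, log2) against the mean level of both groups (horizontal axis, log2 RMA value) for the 15399 clusters tested, with 3 lists in colour. Mitosis genes lie between 0.87 and 2.33, most mesenchymal genes lie above 0 and most Sertoli genes below 0.

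Genes of interstitium and mesenchyme were higher in *αSma-EYFP* cells as a group. Of 24 list members with a cluster, 21 reached the level required, and of these 17 were higher and none lower (background 16.6% and 12.9%), with a median difference of 1.17 against -9e-04 over all clusters. Beside *Tcf21* and *Fn1*, *Dcn*, which encodes the matrix proteoglycan decorin, read 9.20, 9.91 and 9.0005 against 6.55, 6.502 and 6.76 (6.819-fold, adjusted p = 4.42e-10). *Postn*, the gene for periostin, was 5.737-fold higher, at 9.17, 10.22 and 8.88 against 6.93, 6.96 and 6.82. The arrays of neither gene overlapped between the groups, and replicate 2 was the highest *αSma-EYFP* array for both.

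Transcription factors of mesenchyme followed the same direction. *Snai2* was 4.327-fold higher (10.48, 10.60 and 10.50 against 7.58, 8.71 and 8.95), *Nr2f2*, which encodes COUP-TFII of interstitial progenitors, differed by 1.81, *Prrx1* by 1.80, *Twist1* by 1.66 and the hedgehog effector *Gli3* by 1.17. *Pdgfrb*, a receptor of mural and mesenchymal cells, read 7.92, 8.04 and 7.66 against 6.35, 6.38 and 6.33, a 2.859-fold difference. *Pdgfra*, the related receptor, was also present in *Sry-EGFP* cells at a mean of 9.7, and its difference of 0.62 did not pass the test (adjusted p = 0.0904). *Col1a1*, *Thy1* and *Maf* did not pass it either.

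The contractile genes of smooth muscle, to which *Acta2* belongs, gave 12 higher and no lower members of 18 tested (background 16.6% and 12.9%). Their median difference was 0.88. *Cnn2*, an actin-binding calponin, read 8.23, 8.45 and 7.80 against 6.01, 6.42 and 6.08 (3.955-fold, adjusted p = 6.88e-08). *Tagln*, the actin-binding protein SM22, read 7.89, 7.39 and 7.51 against 6.48, 6.38 and 6.24 (2.347-fold, adjusted p = 1.12e-08). *Actc1* differed by 1.77, *Csrp1* by 1.62, *Cald1* by 1.31 and *Tpm2* by 1.15. *Srf*, the transcription factor that drives contractile and immediate early genes, was 2.797-fold higher. Other members did not pass the test or the level required. *Myh11* (7.8 against 7.6), *Mylk* (7.3 in both) and *Myl9* (11.3 against 11.6) did not pass the test, and *Myocd*, a coactivator of *Srf*, lay under 6 in both groups.

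*Srf* protein binds the CArG box, a stretch of A and T bases between CC and GG. In the 150 bases before the gene start (RefSeq, GRCm38.p6), 4 of the 15 tested members of the smooth muscle list with an entry hold a CArG box (26.7%), against 0.864% of the 11111 tested genes with an entry and 1.04% of all 27025 genes. The 4 are *Cnn2*, *Srf*, *Acta1* and *Actc1*, of which *Acta1* did not pass the test above. Over the whole entry, from 250 bases before to 50 after the start, *Myl9* is added (33.3%, against 1.58% of the tested genes). The windows of *Cnn2*, *Actc1* and *Srf* are shown because these genes were higher and hold the box, and that of *Acta2* because it is the gene of the reporter and has no full match within the window. Both strands were searched, each sequence is given 5′ to 3′ on the strand of the gene, and capitals mark the box.
Acta2 (chr19:34255374-34255523, minus strand): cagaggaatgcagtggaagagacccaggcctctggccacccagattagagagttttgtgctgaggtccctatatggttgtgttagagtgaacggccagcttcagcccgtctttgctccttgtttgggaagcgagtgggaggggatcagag
Cnn2 (chr10:79988450-79988599, plus strand): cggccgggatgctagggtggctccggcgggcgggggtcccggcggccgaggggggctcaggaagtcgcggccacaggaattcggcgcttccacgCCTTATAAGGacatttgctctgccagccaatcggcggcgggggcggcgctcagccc
Actc1 (chr2:114052876-114053025, minus strand): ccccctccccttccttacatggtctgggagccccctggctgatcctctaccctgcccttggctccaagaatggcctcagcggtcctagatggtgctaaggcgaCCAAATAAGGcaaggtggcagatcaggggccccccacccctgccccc
Srf (chr17:46556163-46556312, minus strand): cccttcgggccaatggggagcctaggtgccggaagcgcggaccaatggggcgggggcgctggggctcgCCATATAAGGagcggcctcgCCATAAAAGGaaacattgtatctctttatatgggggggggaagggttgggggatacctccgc
A match describes these letters only, and its absence in *Acta2* says nothing of the bases beyond the window. The search also took only A or T at the 6 positions between CC and GG. Stretches with another letter there, such as ccctatatgg and ccttgtttgg in the *Acta2* window, were not counted.

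Several Sertoli genes were lower in *αSma-EYFP* cells, though *Sox9* and *Fgf9* stayed above their levels in XX cells. Of 19 members tested, *Sry* included, 9 were lower, 1 was higher and 9 did not pass (background 12.9% lower and 16.6% higher), with a median difference of -0.46. For 15 members the *αSma-EYFP* arrays all lay below the *Sry-EGFP* arrays, beside 19.3% of all clusters. *Fgf9*, a growth factor that acts with *Sox9* in the early testis, read 9.24, 8.40 and 9.40 against 10.36, 10.58 and 10.48 (2.747-fold lower, adjusted p = 7.64e-08), and 6.75 to 7.29 in the XX arrays. *Mro*, a nuclear protein of early Sertoli cells, read 7.82, 7.31 and 7.67 against 8.65, 9.45 and 9.66 (3.151-fold lower, adjusted p = 1.43e-06). *Ptgds*, the prostaglandin D synthase, was 2.138-fold lower, *Cbln4* differed by -1.10, *Aard* by -1.03 and *Ppargc1a* by -1.02.

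Replicate 2 of the *αSma-EYFP* group had the lowest values of *Sox9*, *Fgf9*, *Mro*, *Ptgds* and *Cst9* in that group, and the highest values of *Dcn* and *Postn*. *Dhh*, a Sertoli hedgehog ligand near the lower limit at this stage, differed by -0.46, and its call was lost without *Sry-EGFP* replicate 1 (-0.37, adjusted p = 0.064). *Vnn1* was the member that was higher, by 0.73, and its call was lost without *αSma-EYFP* replicate 1 (0.49, adjusted p = 0.103). *Amh*, *Sox8*, *Dmrt1*, *Gadd45g*, *Erbb4*, *Tesc* and *Col9a3* did not pass the test. *Etv5* did not pass by the cluster with the higher mean (-0.58, adjusted p = 0.0695) and was lower by its other cluster (-0.71, adjusted p = 0.000172). *Amh*, the anti-Müllerian hormone of later Sertoli cells, was near 6 in all groups.

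Of 15 genes of pre-granulosa cells and the ovarian pathway, 5 were lower and 3 higher in *αSma-EYFP* XY cells (background 12.9% and 16.6%). The median difference was -0.07. *Lgr5*, a receptor for R-spondins, was 3.531-fold lower (7.90, 7.33 and 7.24 against 9.12, 9.22 and 9.59, adjusted p = 9.63e-07). *Kitl*, the ligand of KIT, was 2.172-fold lower (9.67, 9.36 and 9.10 against 10.24, 10.61 and 10.64), *Cdkn1b*, an inhibitor of cyclin-dependent kinases, 2.347-fold lower, and *Fst*, which binds activins, 1.95-fold lower. *Runx1* differed by -0.85. The higher members were *Bmp2* (1.17), the Wnt receptor *Fzd1* (0.78) and the Wnt effector *Lef1* (0.66). *Wnt4* differed by -0.10, *Rspo1* by 0.19 and *Foxl2* by -0.06, and none of these passed the test.

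Transcription factors of the gonadal primordium were present in both groups and moved in both directions. Of 12 tested, 4 were higher and 2 lower (background 16.6% and 12.9%). *Nr5a1*, which encodes the steroidogenic factor SF1 and is required to build the gonad, read 8.14, 8.05 and 8.27 against 9.14, 9.27 and 9.34 (2.14-fold lower, adjusted p = 6.53e-12). *Gata4* was 1.587-fold lower (adjusted p = 0.00159), while *Wt1*, at means of 11.0 and 11.5, differed by -0.46 and did not pass (adjusted p = 0.0588). *Lhx9*, a homeobox factor of the ridge, was 2.355-fold higher (10.94, 10.80 and 10.85 against 9.06, 9.74 and 10.07) and *Osr1*, a factor of intermediate mesoderm, differed by 1.10. The fourth higher member beside *Tcf21* was *Cbx2* (0.29), whose call was lost in 4 of 6 fits that left out 1 array (adjusted p between 0.0504 and 0.137).

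Genes known from the coelomic surface epithelium gave 6 higher members of 11 (background 16.6%). *Aldh1a2*, the enzyme that makes retinoic acid, read 9.65, 9.93 and 9.96 against 7.82, 8.28 and 8.31 (3.279-fold, adjusted p = 9.61e-09). *Upk3b*, a uroplakin of mesothelium, read 8.21, 8.19 and 8.22 against 6.82, 6.61 and 6.62 (2.873-fold, adjusted p = 3.47e-12). The keratins *Krt7*, *Krt18* and *Krt19* differed by 1.33, 1.00 and 0.72. The single lower member, *Msln* (-0.20), lay near 6 and lost its call in 5 of 6 fits that left out 1 array, *Sry-EGFP* replicates 1 and 2 among them. *Cdh1*, the epithelial cadherin, was near 6 in both groups.

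Mitosis genes moved together. All 25 members tested were higher in *αSma-EYFP* cells (background 16.6%). For 24 of them the arrays did not overlap, beside 22.3% of all clusters in this direction. The median difference was 1.51, with a range from 0.87 (*Kif23*) to 2.33 (*Ect2*). *Mki67*, which encodes the proliferation antigen Ki-67, read 9.52, 9.88 and 9.38 against 8.07, 8.08 and 7.69 (3.126-fold, adjusted p = 3.64e-15). *Ccnb2*, a mitotic cyclin, read 10.62, 10.94 and 10.64 against 8.28, 9.39 and 8.51 (4.013-fold, adjusted p = 3.47e-12). *Ect2*, a factor of cell division, read 9.26, 9.04 and 8.97 against 5.86, 7.50 and 6.92, and *Ndc80*, *Nuf2* and *Ttk*, which act at the kinetochore, differed by 1.95, 1.94 and 1.90. The mean level of the list was 9.29 to 9.60 in *αSma-EYFP* arrays and 7.78 to 8.21 in *Sry-EGFP* arrays.

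DNA replication genes moved in the same direction by less. Of 26 tested, 23 were higher and none lower (background 16.6% and 12.9%), with a median difference of 0.75. *Rfc4*, a subunit of the clamp loader, was 3.373-fold higher (8.87, 8.89 and 9.22 against 6.77, 8.13 and 6.82), and *Prim1*, the primase, 3.062-fold higher (9.87, 9.92 and 9.51 against 8.32, 7.98 and 8.15). *Cdc6* differed by 1.26, *Rfc3* by 1.25 and *Rrm2*, a subunit of ribonucleotide reductase, by 1.16. *Mcm6*, *Rrm1* and *Ccne2* did not pass the test. Among inhibitors of the cell cycle and pocket proteins, *Cdkn1b* was the lower member of 17, while 5 were higher (background 12.9% and 16.6%). The higher ones include *Btg2* (1.84), *Gadd45b* (1.61) and the pocket protein *Rbl1* (0.86). *Btg2* and *Gadd45b* are also induced by stress.

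Promoters of mitotic genes commonly combine CCAAT boxes with a cell cycle genes homology region (CHR, TTTGAA). In the same window of 150 bases both strands were searched for the letters TTTGAA and CCAAT. Of 21 mitosis genes with an entry, 16 hold CCAAT (76.2%, against 30.4% of the tested genes with an entry) and 7 hold TTTGAA (33.3%, against 6.55%). The same 7 genes hold both (33.3%), namely *Cdk1*, *Mki67*, *Top2a*, *Kif11*, *Cdc20*, *Prc1* and *Ect2*. Both were found in 1.97% of the tested genes with an entry, in 2.63% of all genes with an entry and in none of 21 DNA replication genes. Of these 21 replication genes, 12 hold CCAAT (57.1%) and 2 hold TTTGAA (9.52%). Among the tested genes that were higher in *αSma-EYFP* cells 3.35% hold both, and among those that were lower 1.4%. The counts depend on the window. Over the whole entry of 300 bases 16 of the 21 mitosis genes hold TTTGAA (76.2%) and 14 hold both (66.7%). Both were found there in 2 of the 21 DNA replication genes (9.52%) and in 5.58% of the tested genes. The windows of *Cdc20* and *Top2a* hold both and that of *Ccnb2* holds CCAAT alone, with 3 copies. Capitals mark both kinds of match, which read TTCAAA or ATTGG where the match lies on the other strand.
Cdc20 (chr4:118437344-118437493, minus strand): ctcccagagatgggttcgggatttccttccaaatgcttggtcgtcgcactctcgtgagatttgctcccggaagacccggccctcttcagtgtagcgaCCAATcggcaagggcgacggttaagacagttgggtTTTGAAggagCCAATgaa
Top2a (chr11:99024190-99024339, minus strand): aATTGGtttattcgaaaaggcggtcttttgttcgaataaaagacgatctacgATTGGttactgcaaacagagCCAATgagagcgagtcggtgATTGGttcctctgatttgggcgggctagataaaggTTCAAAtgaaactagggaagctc
Ccnb2 (chr9:70421555-70421704, minus strand): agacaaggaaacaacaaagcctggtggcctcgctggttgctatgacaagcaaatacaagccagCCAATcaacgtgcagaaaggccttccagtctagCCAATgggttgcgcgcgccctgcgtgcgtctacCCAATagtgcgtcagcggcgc
The whole entry of *Ccnb2*, beyond its window, does hold TTTGAA. *Ccnb2* differed by 2.00 between the groups, *Top2a* by 1.37 and *Cdc20* by 1.01, and a relation of the matches to these differences was not tested.

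**Figure D3:**
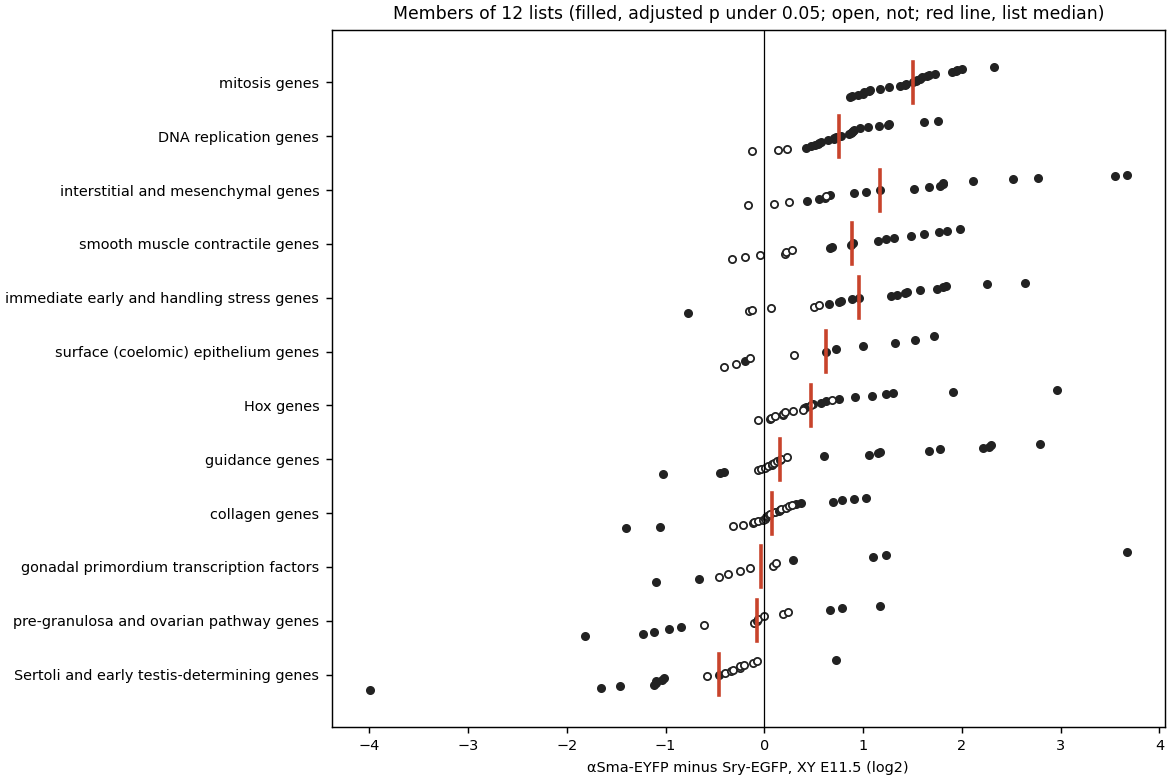
Difference between *αSma-EYFP* and *Sry-EGFP* XY cells at E11.5 (horizontal axis, log2) for the members of 12 lists (rows), with filled points for an adjusted p under 0.05, open points for others and a red line at the list median. All 25 mitosis genes lie to the right of 0, and the Sertoli list has its median at -0.46.

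Immediate early and stress genes, which respond within minutes to serum, dissociation and sorting, were also higher in *αSma-EYFP* cells. Of 21 tested, 15 were higher and 1 lower (background 16.6% and 12.9%), with a median difference of 0.96. *Atf3* read 10.74, 10.76 and 10.79 against 7.78, 8.85 and 7.73 (6.24-fold, adjusted p = 2.33e-08). *Nr4a1* was 4.786-fold higher (10.47, 10.13 and 10.02 against 7.84, 7.93 and 8.07) and *Egr1* 3.352-fold higher (10.15, 10.16 and 10.05 against 8.42, 8.48 and 8.22). *Fos* differed by 0.96, and *Jun* by 0.66, a call lost in each of the 6 fits that left out 1 array (adjusted p between 0.061 and 0.129). *Ddit4*, a target of glucocorticoid and hypoxia signals, was the lower member (-0.78), and without *Sry-EGFP* replicate 1 there were 2. The chaperones *Hspa1a* and *Hsp90aa1* did not pass the test. The *Hspa8* cluster with the highest mean did not pass either (-0.13), but another of its 3 clusters was lower (-1.20, adjusted p = 1.33e-06). The list's mean level was 9.85 to 9.98 in *αSma-EYFP* arrays and 8.79 to 9.09 in *Sry-EGFP* arrays, and its part in the differences of *Srf*, *Egr2*, *Btg2* and other inducible genes was not tested.

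Signalling genes were divided, and their counts stand beside 16.6% higher and 12.9% lower over all clusters. Of 17 FGF pathway genes, 8 were higher and 1, *Fgf9*, was lower, and the higher ones include feedback inhibitors of the pathway. *Spry2* was 3.489-fold higher (9.31, 9.34 and 9.36 against 7.78, 7.35 and 7.46), the ERK phosphatase *Dusp6* differed by 1.14 and the receptor *Fgfr1* by 0.74. Of 26 Wnt pathway genes, 9 were higher and 2 lower, led by the ligand *Wnt5a* (1.78) and the secreted inhibitors *Sfrp1* (1.61) and *Sfrp2* (1.53). Of 29 genes of the BMP and TGF-beta family, 11 were higher and 2 lower. *Id2*, an inhibitor of basic helix-loop-helix factors that BMP induces, was 4.449-fold higher (10.28, 10.32 and 10.08 against 8.02, 8.60 and 7.60), *Tgfb2* 4.154-fold higher (8.37, 8.89 and 8.04 against 6.07, 6.599 and 6.46), and *Id1*, *Bmp5* and *Id3* differed by 1.54, 1.43 and 1.28. Without *Sry-EGFP* replicate 1 the BMP and TGF-beta list had 7 higher members.

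Retinoic acid genes moved in both directions. Of 15 tested, 5 were higher and 3 lower (background 16.6% and 12.9%). *Crabp2*, which carries retinoic acid to the nucleus, was 3.849-fold higher (10.27, 10.65 and 10.78 against 7.79, 8.98 and 9.10), and *Crabp1* (1.51), the receptor *Rarb* (1.15) and the retinol dehydrogenase *Rdh10* (1.06) were higher beside *Aldh1a2*. *Cyp26b1*, which degrades retinoic acid, was lower (-0.70). The synthetic enzymes *Aldh1a1* (-0.73) and *Aldh1a3* (-0.37) were lower as well, with the call of *Aldh1a1* lost in 4 of 6 fits and that of *Aldh1a3* in 1 of 6 fits that left out 1 array, and without *Sry-EGFP* replicate 1 the list had 1 lower member.

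In the Notch pathway 4 of 18 genes were higher and 4 lower, beside 16.6% and 12.9% of all clusters. *Hes1*, a repressor that Notch induces, was 4.35-fold higher (9.63, 9.47 and 9.20 against 6.87, 7.49 and 7.58) and *Hey2* differed by 1.16, while *Hey1* was lower (-0.76). Without *Sry-EGFP* replicate 1 the Notch list had 2 lower members. The Notch receptors *Notch1*, *Notch2* and *Notch3* did not pass the test. Hedgehog genes gave 4 higher members of 11, with *Gli3* (1.17), *Gli2* (0.91) and *Gli1* (0.57) among them, and 1 lower, *Dhh*, with no lower member without *Sry-EGFP* replicate 1.

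Matrix, adhesion and guidance genes held some of the largest differences beside members that did not move. Of 30 integrin, laminin and basement membrane genes, 9 were higher and 6 lower, beside 16.6% and 12.9% of all clusters. *Itga8*, an integrin of mesenchyme, was 5.721-fold higher (9.92, 10.38 and 9.60 against 6.99, 7.48 and 7.88), and *Itga9*, *Tnc* and *Nid2* differed by 1.61, 1.43 and 1.41. *Lama4*, a laminin chain, was 2.508-fold lower (8.46, 8.02 and 8.28 against 9.37, 9.71 and 9.66), with *Fbln2* (-1.20) and *Itga6* (-1.05). Without *Sry-EGFP* replicate 3 there were 3 lower members. Of 26 collagens, 6 were higher, led by *Col3a1* (1.03) and *Col1a2* (0.91), and 2 were lower, *Col12a1* (-1.40) and *Col18a1* (-1.05), with 4 lower ones without *Sry-EGFP* replicate 3.

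Cadherins gave 5 higher members of 15, with *Cdh11* of mesenchyme (1.96) and *Cdh6* (1.72) in the lead, and 3 without *Sry-EGFP* replicate 1. Of 24 guidance genes, 10 were higher and 3 lower, beside 16.6% and 12.9% of all clusters. *Unc5c* read 9.31, 9.94 and 9.23 against 6.65, 6.77 and 6.67. *Robo2*, a receptor for Slit proteins, was 4.918-fold higher (10.25, 10.38 and 10.29 against 7.79, 8.21 and 8.04) and its ligand *Slit2* 4.852-fold higher (9.14, 9.42 and 8.92 against 6.31, 7.12 and 7.20). The chemokine *Cxcl12* was 4.646-fold higher, whereas *Cxcr4*, its receptor, was 2.038-fold lower. Without *Sry-EGFP* replicate 1 the guidance list had 1 lower member.

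Of 23 Hox genes tested, 12 were higher and none lower (background 16.6% and 12.9%), with a median difference of 0.47. The largest differences were in the *Hoxd* cluster. *Hoxd10* read 9.84, 9.19 and 9.73 against 6.78, 6.48 and 6.59, *Hoxd8* differed by 1.91 and *Hoxd4* by 1.23. *Hoxc5* (1.30) and *Hoxa5* (1.09) represent other clusters. No tested member of the *Hoxb* cluster differed by over 0.42.

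Lists of markers of other cell types are given beside the 16.6% of all clusters that were higher and the 12.9% that were lower. Of 15 germ cell genes 9 could be tested and none passed in either direction (limma, adjusted p; 1 was higher and none lower at an unadjusted p under 0.05, and 1 was called higher without *Sry-EGFP* replicate 1), and the defining markers *Pou5f1*, *Dazl* and *Ddx4* lay under 6 in both groups. Of 13 endothelial genes tested, 2 were higher, *Kdr* (1.20) and *Emcn* (0.66), while *Pecam1* and *Cdh5* differed by -0.10 and 0.11. The mean level of the endothelial list was 6.49 to 6.56 in *αSma-EYFP* arrays and 6.28 to 6.58 in *Sry-EGFP* arrays. The call of *Emcn* was lost in 4 of 6 fits that left out 1 array, and the endothelial list had 1 higher member without *Sry-EGFP* replicate 1 or 3. Of 6 pericyte genes 1 was higher and 1 lower. *Rgs5*, which marks pericytes and vascular smooth muscle, read 7.92, 8.36 and 7.57 against 5.59, 5.60 and 5.48 and was at least 3.856-fold higher, while *Cspg4* differed by -0.32, a call lost without *Sry-EGFP* replicate 1 or 2, and *Kcnj8* and *Abcc9* did not pass.

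Macrophage and leukocyte genes gave 2 lower members of 8 tested, *Cx3cr1* (-0.70) and *C1qa* (-0.42), and none higher. Without *Sry-EGFP* replicate 1 there was 1 higher member and none lower. Without replicate 2 none was lower, and without replicate 3 there were 4 lower. The defining markers *Csf1r*, *Adgre1* and *Itgam* lay under 6. Of 16 members with a cluster, 12 had a mean under 6 in *αSma-EYFP* XY cells and 8 in *Sry-EGFP* XY cells. A member could thus enter the test through the *Sry-EGFP* group alone, where it is higher. The mean level of this list was 5.86 to 5.91 in *αSma-EYFP* and 5.85 to 6.32 in *Sry-EGFP* arrays. Red blood cell genes gave 1 lower member of 7, *Epor* (-0.37), with none without *Sry-EGFP* replicate 1 and 3 without replicate 3. The embryonic globin *Hbb-y* read 11.28, 10.46 and 7.64 in the *Sry-EGFP* arrays and had a mean of 8.2 in *αSma-EYFP* arrays (difference -1.57, not called). Mesonephric genes gave 1 higher (*Calb1*, 1.12) and 3 lower members of 12, the latter 1 without *Sry-EGFP* replicate 3, and neural crest genes 1 and 2 of 5, the latter 1 without replicate 1 or 2. Of the steroid genes *Star*, which moves cholesterol into mitochondria, was 2.426-fold higher (8.28, 8.60 and 8.51 against 6.84, 7.01 and 7.71) and *Mc2r* was higher by 1.95, *Hsd17b3* (-1.38) and *Scarb1* (-0.53) were lower, and *Cyp11a1* differed by -0.10. Without *Sry-EGFP* replicate 1 or 2 the steroid list had 1 lower member. Glycolysis and hypoxia genes gave 2 higher members of 13, *Egln3* (1.21) and *Adm* (0.82), and 1 without *Sry-EGFP* replicate 1. Y-linked genes were alike within the error of the test, *Eif2s3y* at 0.02, *Kdm5d* at -0.24 and *Uty* at -0.32, and *Xist* was lower (-1.08).

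**Figure D4:**
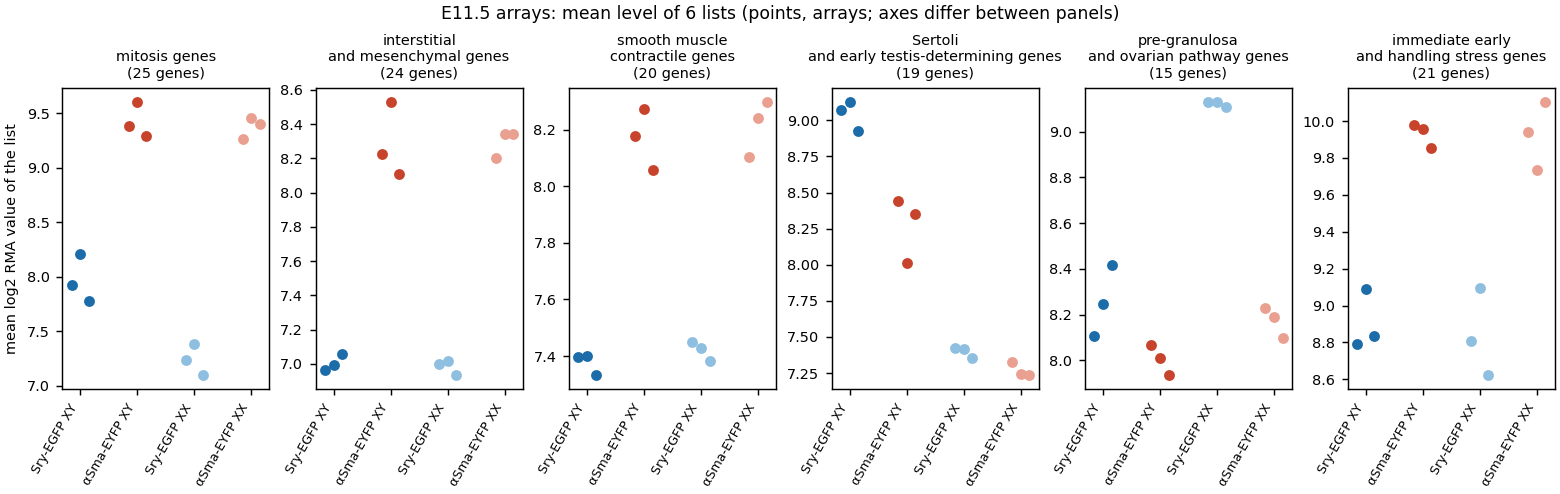
Mean log2 RMA value (vertical axis, scaled separately in each panel) of 6 lists in the 3 arrays of each of 4 groups at E11.5. For mitosis and mesenchymal genes the *αSma-EYFP* arrays of both sexes lie above all *Sry-EGFP* arrays, and for the Sertoli list the *αSma-EYFP* XY arrays lie between those of *Sry-EGFP* XY and of XX cells.

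The same comparison of reporters in XX gonads had a similar extent, with 2820 of 15487 clusters higher in *αSma-EYFP* cells (18.2%) and 2081 lower (13.4%). The mesenchymal list gave 17 higher and no lower members of 21 in XX as in XY, with medians of 1.29 and 1.17, and the smooth muscle list 13 of 18 higher in XX. All 25 mitosis genes were higher in XX cells too, with a median difference of 2.18, since *Sry-EGFP* XX arrays had a mean list level of 7.09 to 7.39. *Acta2* differed by 1.13 in XX cells, a call lost in 2 of 6 fits that left out 1 array. For the pre-granulosa list, 11 of 15 members were lower in XX *αSma-EYFP* cells and 1 was higher, with a median of -0.86 beside -0.07 in XY. *Fst* read 8.18, 7.72 and 7.65 in *αSma-EYFP* XX arrays and 11.40, 11.33 and 11.40 in *Sry-EGFP* XX arrays.

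The difference of the XY and XX comparisons was tested in the same model, over 15690 clusters, of which 121 were higher (0.771%) and 197 lower (1.26%) in XY. Of the Sertoli list 6 of 19 members were lower in this test and none higher. *Fgf9* differed by -1.46 in XY and by 0.45 in XX *αSma-EYFP* cells (interaction -1.91, adjusted p = 8.28e-06), *Sox9* by -1.11 and 0.46 (-1.57, adjusted p = 6.33e-05), and *Mro*, *Cbln4*, *Etv5* and *Ppargc1a* complete the 6. Of the pre-granulosa list 6 of 15 members were higher and none lower, with *Fst* at -0.96 in XY and -3.52 in XX (interaction 2.56, adjusted p = 4.12e-09) and *Bmp2* at 1.17 and -0.79 (interaction 1.96, adjusted p = 0.00142). Of the mitosis list 11 of 25 were lower and none higher in this test, *Ccna2* for example at 1.54 in XY and 2.44 in XX. For the mesenchymal list 1 of 21 members, *Pdgfra*, passed it, with a difference of 0.62 in XY and 2.34 in XX cells (interaction -1.72, adjusted p = 0.00701), while none of 18 smooth muscle genes and none of 21 immediate early genes did (limma, adjusted p; 2 and 1 at an unadjusted p under 0.05). *Sry-EGFP* XY replicate 1 bears on these counts, since 70 clusters were higher in the interaction without it.

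**Figure D5:**
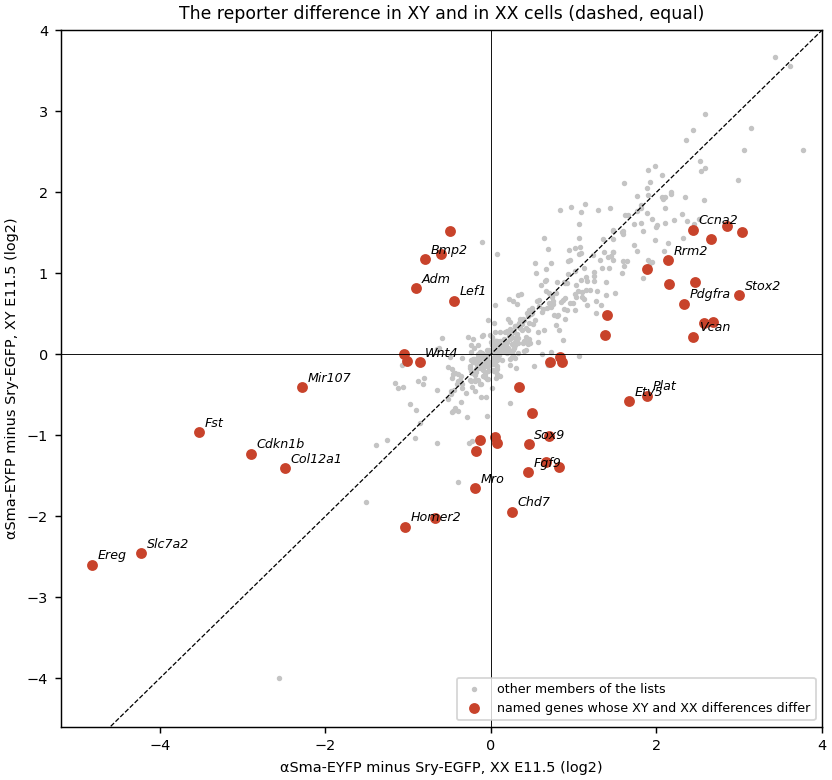
The difference between *αSma-EYFP* and *Sry-EGFP* cells at E11.5 in XY (vertical axis, log2) against that in XX cells (horizontal axis, log2), with other list members in grey, 49 clusters of named genes whose differences passed the test of XY against XX in red and equality on the dashed line. *Fgf9* and *Sox9* lie below 0 in XY and above 0 in XX cells, *Bmp2* and *Lef1* the other way, and *Ereg*, *Slc7a2* and *Fst* lie below 0 in both with the larger difference in XX.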

How the data were processed

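RNA of sorted cells, pooled from a litter or several litters per array and amplified with the NuGEN Pico kit, had been hybridised to Affymetrix Mouse Gene 1.0 ST arrays. The deposited values are log2 intensities that the authors computed with RMA, which corrects for background, equalises the quantiles of the arrays and summarises probes by median polish, in Partek Genomics Suite 6.5 on transcript clusters. The methods name a joint processing of all 91 arrays for the *αSma-EYFP* cells and another of 72 arrays that left those cells out. The table holds all 91 arrays, so its *αSma-EYFP* values cannot come from the processing of 72. Whether its other values come from the joint processing is not given in the sources used here, nor is a genome build. Values ran from 3.54 to 14.12, with array medians between 6.555 and 6.811. RMA compresses differences near background, and the number of arrays limits the precision.

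Of 35557 clusters, 21789 name 1 gene (19938 genes), 1621 name several and 12147 are unnamed in GEO's platform annotation. Clusters of 1 gene were kept at a log2 value of 6 in 2 of 3 arrays of either group. A mean per group was fitted over 90 arrays in 30 groups with limma 3.58.1 in R 4.3.3 (lmFit and eBayes, 60 residual degrees of freedom), so the spread is shared over all groups, and 1 array of a whole P0 mouse was left out. Adjusted p-values follow Benjamini and Hochberg over the clusters tested, and were called under 0.05. In simulated data with 200 changed clusters among 15399, 96% of log2 differences of 1 and 99% of those of 1.5 were recovered, with 13 false calls. Far more clusters were called in the real XY comparison (4551), so these rates need not hold for it. P-values measure the spread between pools of embryos.

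The members and the 32 lists (559 genes) were chosen with earlier results of these data known. Genes named are *Sry*, *Sox9* and *Acta2*, up to 12 clusters per direction (8 in the other comparisons) with the largest differences among those called without overlap, and in each list the first 3 members and up to 5 called members per direction. A further planned comparison is not reported here. Other members named were chosen after their values were seen. Largest differences are named by cluster, and in the lists a gene with several clusters is given by the cluster with the highest mean over the 90 arrays. Folds against a group with a mean under 6 count that group at 6 and are lower bounds.

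Promoters are RefSeq sequences (GRCm38.p6), searched in the 150 bases before the start of 11111 tested genes and in the whole entries of 300 bases.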

Additional observations from a re-analysis of the deposited data

Results flagged for a closer look

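The difference between *αSma-EYFP* and *Sry-EGFP* cells at E11.5 was not the same in XY as in XX gonads for 121 clusters in one direction and 197 in the other, by the interaction term of the model over 15690 clusters (limma, Benjamini-Hochberg adjusted p under 0.05). The 51 clusters of genes taken by the naming rule are given here. Values below are log2 differences, *αSma-EYFP* minus *Sry-EGFP*, first in XY and then in XX cells, followed by the interaction (XY minus XX). The XY and XX comparisons share no arrays, but line and strain differ together in both.

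Among Sertoli genes *Sox9* gave -1.11 and 0.46 (interaction -1.57), *Fgf9* -1.46 and 0.45 (-1.91), *Mro* -1.66 and -0.19 (-1.47), *Cbln4* -1.10 and 0.08 (-1.18), *Ppargc1a* -1.02 and 0.70 (-1.72) and *Etv5* -0.58 and 1.67 (-2.25). Of these, *Mro* lost its interaction call in 4 of 12 fits that left out 1 array. Among genes of the ovarian pathway *Fst* gave -0.96 and -3.52 (interaction 2.56), *Bmp2* 1.17 and -0.79 (1.96), *Lef1* 0.66 and -0.45 (1.11), *Cdkn1b* -1.23 and -2.90 (1.67), *Irx3* 1e-04 and -1.05 (1.05) and *Wnt4* -0.10 and -0.86 (0.76). *Wnt4* lost the call in 7 and *Cdkn1b* in 2 of those 12 fits. Of the 2 clusters of *Wnt4*, 1 passed the interaction test.

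Among matrix and adhesion genes *Lama4* gave -1.33 and 0.67 (interaction -2.00), *Fbln2* -1.20 and -0.18 (-1.02), *Col18a1* -1.05 and -0.13 (-0.92), *Col12a1* -1.40 and -2.49 (1.08), *Vcan* 0.22 and 2.45 (-2.23), *Itgav* -0.03 and 0.83 (-0.87), *Sparc* -0.09 and 0.86 (-0.95), *Cdh2* -0.09 and 0.71 (-0.81) and *Cdh10* 0.38 and 2.58 (-2.19). The calls of *Cdh2*, *Vcan*, *Itgav*, *Col12a1* and *Col18a1* were lost in 5, 4, 4, 4 and 2 of those 12 fits. *Pdgfra* gave 0.62 and 2.34 (-1.72). Among signalling and guidance genes *Cxcr4* gave -1.03 and 0.05 (-1.08), *Nrp2* -0.41 and 0.33 (-0.74), *Aldh1a1* -0.73 and 0.49 (-1.22), the Wnt receptor *Fzd7* 0.49 and 1.40 (-0.92), and the hypoxia genes *Adm* 0.82 and -0.90 (1.72) and *Ndrg1* -0.08 and -1.01 (0.93). The interaction calls of *Aldh1a1*, *Nrp2* and *Cxcr4* were lost in 9, 8 and 7 of 12 fits that left out 1 array, and that of *Adm* in 1. Of the cell cycle genes *Ccna2* gave 1.54 and 2.44 (-0.90), *Bub1* 1.58 and 2.85 (-1.27), *Kif11* 1.51 and 3.04 (-1.53), *Kif23* 0.87 and 2.15 (-1.28), *Prc1* 0.89 and 2.46 (-1.57) and *Tpx2* 1.43 and 2.66 (-1.23). The replication genes *Rrm2*, *Rrm1* and *Pole* gave 1.16 and 2.14 (-0.98), 0.23 and 1.38 (-1.15), and 1.05 and 1.88 (-0.83). All of these cell cycle genes had the larger difference in XX cells, and *Ccna2* lost its call in 3 and *Rrm2* in 1 of the 12 fits.

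Outside the lists, *Ereg* gave -2.60 and -4.82 (interaction 2.22), *Slc7a2* -2.46 and -4.22 (1.77), 1 of the pair of *Homer2* clusters -2.13 and -1.03 (-1.10) and *Trank1* -2.02 and -0.68 (-1.34). *Plat*, the tissue plasminogen activator, gave -0.51 and 1.88 (-2.40), *Etl4* 0.40 and 2.68 (-2.28), *Stox2* 0.73 and 3.002 (-2.28) and *Dct*, a melanin enzyme, -1.39 and 0.82 (-2.22). *Slc7a11*, which imports cystine, and *Vmn1r35* lay under the level tested in XY cells, with -3.25 and -2.38 in XX cells and interactions of 2.80 and 2.18. A cluster annotated as *Mir107*, which does not measure the mature RNA, gave -0.41 and -2.28 (1.87), a call lost in 6 of the 12 fits.

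Some of these genes have many clusters. For *Hmcn1* 5 of 75 clusters passed, of which the leading ones gave 1.53 and -0.49 (interaction 2.02) and 1.24 and -0.60 (1.85), calls lost in 1 and 7 of 12 fits that left out 1 array. For *Chd7* 2 of 30 passed, led by -1.94 and 0.26 (-2.20), a call lost in 5 of 12 fits that left out 1 array.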

How the results depend on the processing

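The counts of clusters depend on the arrays that set the spread and on the threshold. With only the 6 arrays compared, *αSma-EYFP* against *Sry-EGFP* XY cells gave 1681 higher and 921 lower clusters, of which 1574 and 847 were among those called over all groups. The limits of the methods (unadjusted p under 0.05 and over 1.5-fold) gave 1459 and 578. In XX cells the methods' limits gave 1602 and 725. For the interaction the 12 arrays alone gave 50 higher and 122 lower, array weights 360 lower, and the methods' limits 372 and 475. Sharing replicate numbers did not pair the *αSma-EYFP* with the *Sry-EGFP* XY arrays (correlations of deviations -0.0786, 0.0059 and -0.0416). Pairing by number between XX and XY arrays was not tested. The fits with the replicate number as a block gave 1228 and 546 against *Sry-EGFP* XY and 31 and 89 for the interaction. Leaving out 1 array at a time gave 1736 to 2565 higher and 1371 to 1872 lower against *Sry-EGFP* XY, 2135 to 2581 and 1416 to 1953 in XX, and 70 to 165 and 133 to 255 for the interaction. Of the named genes called against *Sry-EGFP* XY, 34 of 177 lost the call in at least 1 of these fits, as did 28 of 175 in XX and 18 of 47 for the interaction, and no named result turned its direction past a threshold. The counts of list members without each *Sry-EGFP* XY array are alternatives chosen after seeing the data, as are those with only the 6 arrays, where the Sertoli list had no higher member. Values under 6 lie near background, where differences are compressed.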

Other observations

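Over the whole series, 5 of 21789 clusters of a single gene separated all 18 *αSma-EYFP* arrays, of both sexes and all stages, from all 72 arrays of the other lines. *AI506816* lay at 5.08 to 7.59 in *αSma-EYFP* arrays and at 8.73 to 10.76 in the others. In the higher direction *Thbs1* lay at 8.40 to 9.87 against 6.602 to 8.22, *Bhlhe40* at 8.16 to 9.39 against 6.10 to 7.55, *Tmem108* at 7.88 to 8.87 against 5.63 to 7.68 and *Tubb4a* at 6.70 to 7.86 against 5.90 to 6.65. Line, strain and cell type cannot be told apart for these clusters.

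*Pf4* and *Ppbp*, neighbouring chemokine genes of platelets, read higher in all *Sry-EGFP* than in all *αSma-EYFP* arrays at E11.5. *Pf4* read 7.10 to 8.79 in XY and 7.55 to 8.37 in XX *Sry-EGFP* arrays and at most 5.50 in the *αSma-EYFP* groups. *Ppbp* read 5.47, 7.42 and 6.87 in *Sry-EGFP* XY arrays, the first of which is under 6 in the array with the highest *Pf4*, and at most 4.90 in the *αSma-EYFP* groups. Of other platelet genes looked up, *Itga2b* differed by -0.40 and *Treml1* by -0.36 between the XY groups (adjusted p = 0.00101 and 0.00644, limma), and *Gp9*, at means of 6.69 and 6.72, did not pass.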
